A study of Homo sapiens with 20 samples.

Results

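The H3K27ac peaks of 5 genomic windows named for AFF3, ZFP36L2 and THADA, GLIS3, ERRFI1 and CGNL1 were described in G401 cells. The windows had been picked from the H3K27ac values of these same libraries as large enhancer clusters of GFP-induced cells, so the values below are a description and carry no test. In the hg19 build they were chr2:100050000-100800000 for AFF3, chr2:43300000-43850000 for ZFP36L2 and THADA, chr9:3800000-4350000 for GLIS3, chr1:8000000-8400000 for ERRFI1 and chr15:57580000-57900000 for CGNL1, together 2570 kb. They held 927 of 98251 peaks in GFP replicate 1, 823 of 79555 in GFP replicate 2, 953 of 145533 in SMARCB1 replicate 1 and 1049 of 135472 in SMARCB1 replicate 2.

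G401 is a human rhabdoid tumour cell line with the genotype SMARCB1(-/-), and SMARCB1 is a core part of SWI/SNF complexes, which remodel chromatin. All groups were this 1 line, and doxycycline induced GFP in the control group and SMARCB1 in the other, each with 2 replicates for every antibody. The dose, the duration and the origin of the replicates were not given in the sources used here, so the SD over replicates may be technical. The H3K27ac libraries were used, and the H3K4me3, H3K4me1, SMARCA4 and input samples were not analysed here.

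Acetylation of histone H3 at lysine 27 marks active promoters and enhancers, and long clusters of acetylated peaks are often called super-enhancers. Such clusters tend to lie at genes that are strongly expressed in a given cell type. AFF3 is a nuclear transcription regulator of the AF4/FMR2 family. GLIS3 is a zinc-finger transcription factor needed in pancreatic beta cells, the thyroid and the kidney. ZFP36L2 binds AU-rich elements of messenger RNAs and promotes their decay, and its neighbour THADA was named for its disruption in thyroid adenomas. ERRFI1, also called MIG6, is a feedback inhibitor of the EGF receptor. CGNL1 encodes paracingulin, a protein of epithelial cell junctions.

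Promoter sequences were available from RefSeq for 5 of the 6 members, with 7 annotated starts in all because AFF3 and GLIS3 each had 2. The promoters of THADA, GLIS3 and CGNL1 are shown because their windows differed most between the groups, THADA's with less and the others with more acetylated sequence in SMARCB1-induced cells. Each runs 5′ to 3′ from 250 bases before to 50 bases after the start in GRCh38.p14, a different build from that of the peaks. Capitals mark a match, on either strand, to the cAMP response element (TGACGTCA), the TATA box (TATAAA), the GC box (GGGCGG) or the CCAAT box (CCAAT). The sequences lie at chr2:43595989-43596288 on the minus strand for THADA, chr9:4298447-4298746 on the minus strand for GLIS3 and chr15:57376255-57376554 on the plus strand for CGNL1.
THADA: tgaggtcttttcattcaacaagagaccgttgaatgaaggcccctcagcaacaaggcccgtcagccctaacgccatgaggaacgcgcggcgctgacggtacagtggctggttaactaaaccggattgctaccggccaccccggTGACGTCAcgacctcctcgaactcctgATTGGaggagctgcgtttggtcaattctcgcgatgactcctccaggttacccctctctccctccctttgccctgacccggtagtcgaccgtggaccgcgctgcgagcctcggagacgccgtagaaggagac
GLIS3: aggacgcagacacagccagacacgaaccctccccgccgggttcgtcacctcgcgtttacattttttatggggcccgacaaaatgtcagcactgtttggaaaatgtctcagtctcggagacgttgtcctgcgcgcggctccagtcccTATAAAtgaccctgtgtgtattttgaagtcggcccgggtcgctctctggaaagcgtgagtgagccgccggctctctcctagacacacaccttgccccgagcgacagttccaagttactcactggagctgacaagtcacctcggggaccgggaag
CGNL1: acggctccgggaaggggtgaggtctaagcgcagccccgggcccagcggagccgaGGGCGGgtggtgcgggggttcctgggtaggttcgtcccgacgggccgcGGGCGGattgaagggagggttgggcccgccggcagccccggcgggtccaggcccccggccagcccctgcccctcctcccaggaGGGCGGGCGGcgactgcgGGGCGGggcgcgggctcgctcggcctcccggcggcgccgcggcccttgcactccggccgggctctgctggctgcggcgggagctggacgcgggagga

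These promoters differed in base composition. CGNL1 had 39 CpG pairs, THADA 26 and the printed GLIS3 start 23, against a median of 14 over the 35116 RefSeq promoters of the same length. ERRFI1 had 47 CpG pairs, while the AFF3 starts had 5 and 8 and the other GLIS3 start had 2. The cAMP response element was found in THADA alone and is present in 1.85% of all promoters. The letters of the TATA box were matched in the printed GLIS3 start and in 11.5% of promoters, at any distance from the start. GC boxes, present in 45.0% of promoters, numbered 5 in CGNL1, 2 of them overlapping, and 1 each in ERRFI1 and the AFF3 start with 8 CpG pairs. The CCAAT box, present in 34.6% of promoters, was found once in THADA and once in ERRFI1. The AP-1 motif (TGANTCA, read on both strands) was in none of the 7 and is in 7.71% of all promoters. No overlap of peaks with promoters, exons or introns is given, since no hg19 annotation was used here.

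Read totals were not given with the peaks. In place of depth, the background that the peak caller expected at a summit was used, and its genome-wide value was 1.82 and 3.74 fragments in the GFP libraries and 4.09 and 3.89 in the SMARCB1 libraries. Fragments of SMARCB1 replicate 1 had a scale of 0.855, so its 4.09 is in scaled fragments, unlike the other values. The lists of SMARCB1-induced cells were also the longer ones and covered 30.2% more sequence on average. Cover, peak numbers and tile counts are therefore given for the full lists and for lists of equal length, the 79555 peaks of highest fold enrichment in each library, for which the excess was 9.81%. The equal list of GFP replicate 2 was its whole list, down to a fold of 1.82. Those of GFP replicate 1 and SMARCB1 replicates 1 and 2 were cut at 3.70, 3.55 and 3.48. Equal lists thus lower the cover of both SMARCB1 libraries and leave that of GFP replicate 2 as it was. At 2 decimals, the median background of the peaks in each window had the genome-wide value of its library in all 20 pairs of window and library. The part of depth in the differences below was not tested beyond these equal lists.

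The windows were densely acetylated in GFP-induced cells. Peaks covered 38.4% and 40.8% of the AFF3 window in GFP replicates 1 and 2, 39.9% and 40.1% of the ZFP36L2 and THADA window, 46.5% and 48.8% of the GLIS3 window, 47.2% and 48.4% of the ERRFI1 window, and 39.9% and 41.9% of the CGNL1 window. The median 500 kb tile of the genome with any peak was covered to 1.63% and 1.53% in the same libraries. Between 7 tiles, for GLIS3 and ERRFI1, and 26 tiles, for AFF3, of 3626 were more densely covered than a window in a GFP library. The windows were placed on clusters and the tiles on a fixed grid, so the counts give an order of size.

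By length, the 5 windows were not the 5 largest clusters of GFP-induced cells. In the authors' deposited tables of stitched regions, the longest region of the AFF3 window ranked 1 by summed peak width in both GFP tables, at 276 and 272 kb. That of GLIS3 ranked 4 in both tables, that of ZFP36L2 and THADA ranked 7 and 10, that of ERRFI1 ranked 13 in both, and that of CGNL1 ranked 27 and 21. When peaks of a list at most 10 kb apart were joined, the AFF3 cluster ranked 2 in both GFP libraries by covered length. The clusters of the other windows then ranked between 17 and 54.

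Over all 5 windows, the covered length in the full lists was 1080.4 and 1123 kb in the GFP libraries and 1222 and 1109 kb in the SMARCB1 libraries. The means were 1102 ± 29.8 kb and 1165 ± 80.2 kb (SD, n = 2), and the groups overlapped. The difference between the SMARCB1 and GFP means was 64.0 kb, 7.27 kb without SMARCB1 replicate 1 and 121 kb without SMARCB1 replicate 2. In lists of equal length it was -61.6 kb, again with overlapping groups. The windows took 1.22% and 1.36% of all covered sequence in the GFP libraries and 1.002% and 1.10% in the SMARCB1 libraries, so their share was lower in both SMARCB1 libraries while their length was not.

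The total combined windows that differed in opposite directions. In the full lists both SMARCB1 libraries covered more of the AFF3, GLIS3 and CGNL1 windows than either GFP library, less of the ZFP36L2 and THADA window, and the groups overlapped for ERRFI1. Over the genome, 56% of 500 kb tiles were higher in both SMARCB1 libraries and 16.8% were lower. With equal lists the CGNL1 window alone was higher in both, the ZFP36L2 and THADA window and the ERRFI1 window were lower in both, and AFF3 and GLIS3 overlapped. The tile shares were then 42.3% higher and 28.4% lower.

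**Figure D1:**
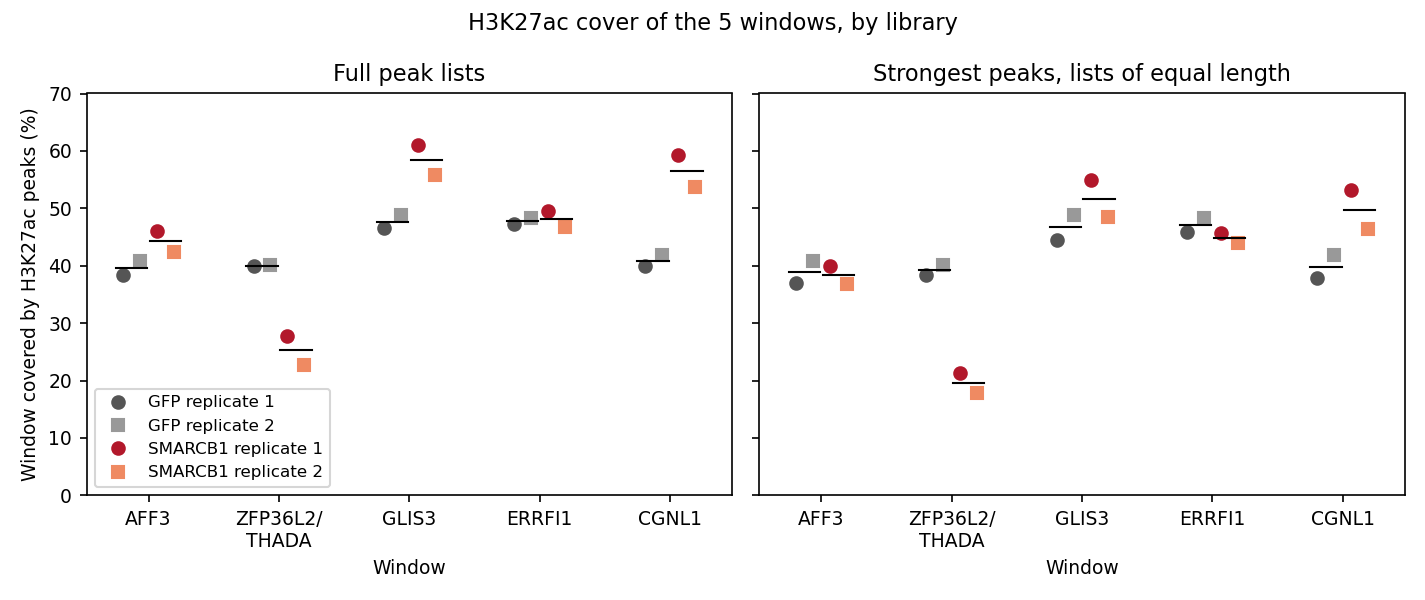
Share of each window covered by H3K27ac peaks (y axis, percent) in the 4 libraries, with the full peak lists on the left and lists of equal length on the right; each point is 1 library and the bars are group means. The ZFP36L2 and THADA window lies near 40% with GFP and below 28% with SMARCB1 in both panels, while the CGNL1 window is higher with SMARCB1 in both panels.

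The acetylated parts of the AFF3 window differed in both directions between the groups. Peaks covered 288 and 306 kb of it in the GFP libraries and 346 and 318 kb in the SMARCB1 libraries, with means of 297 ± 12.6 kb and 332 ± 19.5 kb (SD, n = 2). The difference of 35.0 kb was 21.3 kb without SMARCB1 replicate 1. With equal lists the libraries covered 278, 306, 299.7 and 276 kb in the same order, the groups overlapped and the difference was -4.001 kb. In the full lists the difference was 11.8% of the GFP mean, beside 30.2% for all covered sequence. The window's share of all covered sequence was lower in both SMARCB1 libraries, at 0.325% and 0.372% with GFP and 0.284% and 0.316% with SMARCB1. The number of peaks was 208 and 188 with GFP and 275 and 290 with SMARCB1 in the full lists. It was 169, 188, 145 and 176 in lists of equal length, with overlapping groups and a difference of -18 peaks.

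Tiles of 10 kb showed where in the AFF3 window the groups separated. Of its 75 tiles, 28 were more covered in both SMARCB1 libraries than in either GFP library and 17 less, and over all 50012 tiles of the genome with a peak 42.1% were more covered and 18.5% less. Lists of equal length gave 20 and 19 tiles, against 31.4% and 27.6% over the genome. In this and the other windows all tiles were counted, also those without a peak in any library, which the genome shares leave out. Window shares are therefore low beside those of the genome. Neighbouring tiles formed blocks. At chr2:100240001-100310000 the cover was 68.3% and 76.0% with GFP and 45.9% and 42.0% with SMARCB1. A second block of lower cover, chr2:100170001-100220000, had 70.7% and 77.0% with GFP and 59.9% and 56.2% with SMARCB1. The longest block of higher cover lay some distance away, at chr2:100570001-100640000, with 8.93% and 9.42% with GFP and 44.3% and 41.5% with SMARCB1. Next to it, chr2:100650001-100700000 had 2.37% and 0.848% with GFP and 28.4% and 26.7% with SMARCB1. With equal lists both blocks of lower cover had the same limits, while the blocks of higher cover broke into shorter runs.

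Fold ranks were also compared. Peaks were ranked within their own library by fold enrichment, the authors' value of the summit over the caller's background, with 1 for the strongest. Ranks up to 79555 do not depend on list length, but the lists still differ in background and in how peaks are split, so ranks are set side by side as a description. The region strongest in GFP-induced cells, chr2:100207748-100243752, held peaks of rank 75 and 53 in the GFP libraries and 1924 and 1407 in the SMARCB1 libraries. Peaks covered 35.2, 35.5, 33.0 and 32.4 kb of its 36.0 kb in the 4 libraries, so its extent was close in all of them. It was chosen for its high GFP fold, a choice that favours a lower rank with SMARCB1. The widest region shared by the GFP libraries, chr2:100462560-100503625, went the other way, with ranks of 5024 and 3524 with GFP and 789 and 1533 with SMARCB1. The strongest peak anywhere in the window had rank 295 in SMARCB1 replicate 1 and 101 in SMARCB1 replicate 2, so the window reached the top 1% of peaks in each list.

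The GLIS3 window combined a long common core with 1 flank that was more covered in both SMARCB1 libraries in the full lists and another flank with a less covered stretch. Peaks covered 256 and 268 kb with GFP and 336 and 307 kb with SMARCB1, with means of 262 ± 8.88 kb and 321 ± 20.7 kb (SD, n = 2), a difference of 59.3 kb. The values in lists of equal length were 245, 268, 302 and 266 kb, the mean difference was 27.6 kb and the groups overlapped. In the full lists the difference was 22.6% of the GFP mean, beside 30.2% for all covered sequence. The window's share of all covered sequence was 0.288% and 0.326% with GFP and 0.275% and 0.304% with SMARCB1, with overlapping groups. The core, chr9:3871042-3991757, was 120.7 kb long once the peaks of all 4 libraries were merged. It was covered over 114 and 116 kb with GFP and over 118 and 116 kb with SMARCB1. Its strongest peak ranked 75, 224, 88 and 75 in the 4 libraries, with no order between the groups. It held single peaks of 59.0 and 77.3 kb in the GFP libraries and of 66.5 and 56.7 kb in the SMARCB1 libraries, the widest peaks of any of the 5 windows.

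Of the 55 tiles of 10 kb in the GLIS3 window, 27 were more covered in both SMARCB1 libraries and 8 less, shares of 49.1% and 14.5% beside 42.1% and 18.5% over the genome. With equal lists they were 20 and 10, shares of 36.4% and 18.2% beside 31.4% and 27.6%. Of the 27 tiles, 20 made 2 blocks of 100 kb on 1 side of the core. At chr9:4060001-4160000 the cover was 36.3% and 39.9% with GFP and 64.4% and 58.8% with SMARCB1. At chr9:4200001-4300000 it was 20.7% and 20.3% with GFP and 53.7% and 45.7% with SMARCB1. On the other side of the core, chr9:3820001-3850000 had 72.8% and 86.2% with GFP and 63.7% and 62.0% with SMARCB1. With equal lists the second block spanned 90 kb, with cover of 19.1%, 22.2%, 48.2% and 39.2%, and the first 30 kb.

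The ZFP36L2 and THADA window was the 1 window with less acetylated sequence in SMARCB1-induced cells in both kinds of list. Peaks covered 219.7 and 221 kb with GFP and 153 and 125 kb with SMARCB1, with means of 220.2 ± 0.686 kb and 139 ± 19.3 kb (SD, n = 2). The difference was -81.2 kb, or -36.9% of the GFP mean, and the gap of 67.1 kb between the groups exceeded both SDs. The values in lists of equal length were 211, 221, 117 and 98.3 kb, a difference of -108 kb or -50.1%. With each library left out of the full lists in turn, the difference was between -94.9 and -67.6 kb. The number of peaks was 202 and 193 with GFP and 183 and 178 with SMARCB1 in the full lists, and 170, 193, 91 and 98 in lists of equal length.

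Less cover was seen across most of this window. Of its 55 tiles of 10 kb, 35 were less covered in both SMARCB1 libraries and 2 more, or 63.6% and 3.64%, beside 18.5% and 42.1% over the genome. In lists of equal length 39 were less covered and 1 more, or 70.9% and 1.82%, beside 27.6% and 31.4%. A single unbroken block, chr2:43520001-43750000, held 23 of the 35 tiles and -63.9 kb of the mean difference. Its cover was 57.3% and 60.3% with GFP and 32.9% and 29.1% with SMARCB1, and the block had the same limits in lists of equal length. A further 40 kb at chr2:43440001-43480000 had 69.9% and 72.7% with GFP and 61.5% and 56.7% with SMARCB1.

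The strongest region of the ZFP36L2 and THADA window lay in that smaller block, and its ranks did not separate the groups. At chr2:43441051-43459294 the peaks ranked 248 and 426 with GFP and 144 and 849 with SMARCB1, so the groups overlapped, and 18.0, 18.1, 17.4 and 16.7 kb were covered. The widest region of the GFP libraries, chr2:43690594-43715355 in the long block, had ranks of 1788 and 2500 with GFP and 6960 and 3548 with SMARCB1. Peaks covered 24.2 and 24.7 kb of it with GFP and 21.3 and 20.1 kb with SMARCB1. The strongest region with no SMARCB1 peak was chr2:43524791-43525242, 452 bp long, with fold enrichments of 8.86 and 6.12 and ranks of 16885 and 16833 in the GFP libraries. A SMARCB1 peak lay 448 bp from it.

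The ERRFI1 window differed least of the 5 in the full lists. Peaks covered 189 and 194 kb with GFP and 198 and 187 kb with SMARCB1, with means of 191 ± 3.21 kb and 192 ± 8.17 kb (SD, n = 2). The difference of 1.16 kb changed sign when single libraries were left out, to -1.11 kb without GFP replicate 1 and -4.62 kb without SMARCB1 replicate 1. The values in lists of equal length were 183, 194, 183 and 176 kb, a difference of -8.99 kb with a gap of 0.326 kb between the groups. In the full lists the window's share of all covered sequence was lower in both SMARCB1 libraries, at 0.213%, 0.235%, 0.162% and 0.185%. Among its 40 tiles, 9 were more covered in both SMARCB1 libraries and 12 less, or 22.5% and 30%, beside 42.1% and 18.5% over the genome. Lists of equal length gave 7 and 18 tiles, or 17.5% and 45%, beside 31.4% and 27.6%. The longest run, chr1:8150001-8220000, had 86.6% and 91.0% with GFP and 80.2% and 78.5% with SMARCB1.

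ERRFI1 held the best fold rank of any peak in the 5 windows. The region chr1:8171794-8205175, 33.4 kb long, had ranks of 164 and 39 with GFP and 14 and 249 with SMARCB1. The order of the groups was mixed, since the best and the poorest rank were both in SMARCB1 libraries. The region was covered over 32.5, 33.0, 31.8 and 31.5 kb, so its extent was nearly the same in the 4 libraries.

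The CGNL1 window was the 1 window in which both SMARCB1 libraries covered more than either GFP library in both kinds of list. Peaks covered 128 and 134 kb with GFP and 189 and 172 kb with SMARCB1, with means of 131 ± 4.47 kb and 181 ± 12.6 kb (SD, n = 2). The difference of 49.8 kb, or 38.0%, was larger than both SDs, with a gap of 37.7 kb between the groups. The values in lists of equal length were 121, 134, 170.1 and 148 kb, a mean difference of 31.8 kb or 24.9%. Over the genome the covered sequence was 30.2% higher with SMARCB1 in the full lists and 9.81% higher in equal lists. Of all covered sequence in the full lists, the window took 0.144% and 0.163% with GFP and 0.155% and 0.170% with SMARCB1. For this share the groups overlapped. The number of peaks was 133, 131, 120 and 152 in the full lists, with overlapping groups, and 111, 131, 79 and 98 in lists of equal length, lower in both SMARCB1 libraries. In the full lists peaks had a median width of 383 and 403 bp in the GFP libraries and of 752 and 543 bp in the SMARCB1 libraries.

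Of the 32 tiles of 10 kb in the CGNL1 window, 16 were more covered in both SMARCB1 libraries and 5 less, shares of 50% and 15.6% beside 42.1% and 18.5% over the genome. With equal lists they were 13 and 7, shares of 40.6% and 21.9% beside 31.4% and 27.6%. The window's shares include tiles without a peak in any library, so its shares of less covered tiles cannot be placed below the genome's. The block chr15:57680001-57790000 held 35.7 kb of the difference, with cover of 43.5% and 46.8% with GFP and 80.6% and 74.5% with SMARCB1. Directly before it, chr15:57640001-57680000 was almost fully covered in all libraries, at 98.5% and 99.0% with GFP and 94.4% and 92.2% with SMARCB1. The strongest region, chr15:57640827-57689665, spanned this junction. Its rank was 1498 and 497 with GFP and 201 and 226 with SMARCB1. The peaks behind that rank lay at different places in the region. Their summits were at 57680359 and 57671133 in the GFP libraries and at 57645918 and 57645900 in the SMARCB1 libraries.

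**Figure D2:**
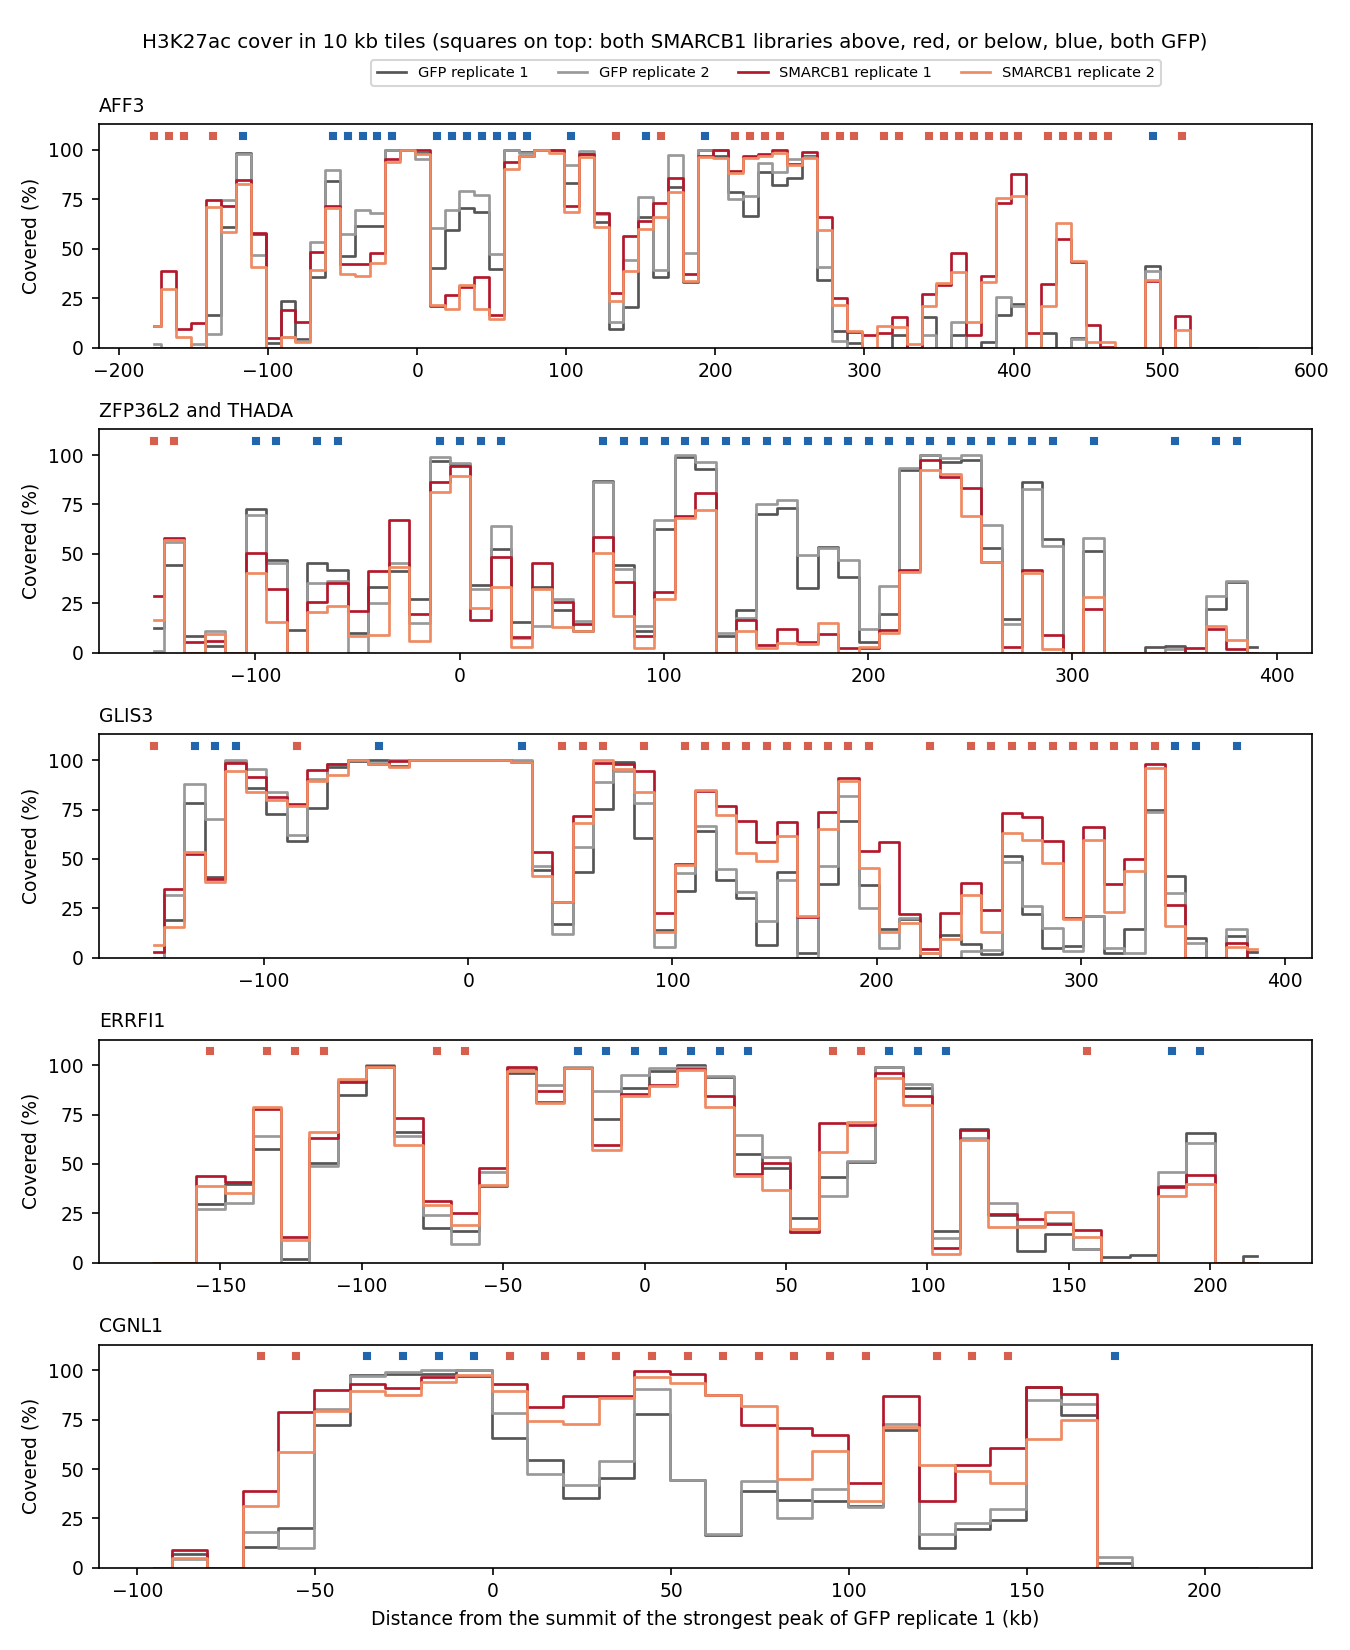
H3K27ac cover (y axis, percent) in 10 kb tiles along each window, by distance from the summit of the strongest peak of GFP replicate 1 (x axis, kb), 1 line per library; squares mark tiles in which both SMARCB1 libraries lie above (red) or below (blue) both GFP libraries. The ZFP36L2 and THADA panel has 35 blue and 2 red squares, and the CGNL1 panel has 16 red and 5 blue.

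The strongest peak of a window was in the top 1% of its list in 19 of the 20 pairs of window and library. The exception was CGNL1 in GFP replicate 1, whose strongest peak had a rank of 1498, or 1.52% of the list. A window held between 120 and 290 peaks of a library, and the strongest of so many often reaches the top 1% anyway. Over the 5 windows, 14 of 927 and 12 of 823 peaks were in the top 1% with GFP. With SMARCB1 the numbers were 16 of 953 and 18 of 1049. The region strongest in GFP-induced cells was picked by its GFP fold, which favours a lower rank with SMARCB1, so no contrast between windows is drawn from it. Its ranks were lower in both SMARCB1 libraries for AFF3, higher in both for CGNL1, and overlapped for ZFP36L2 and THADA, GLIS3 and ERRFI1.

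**Figure D3:**
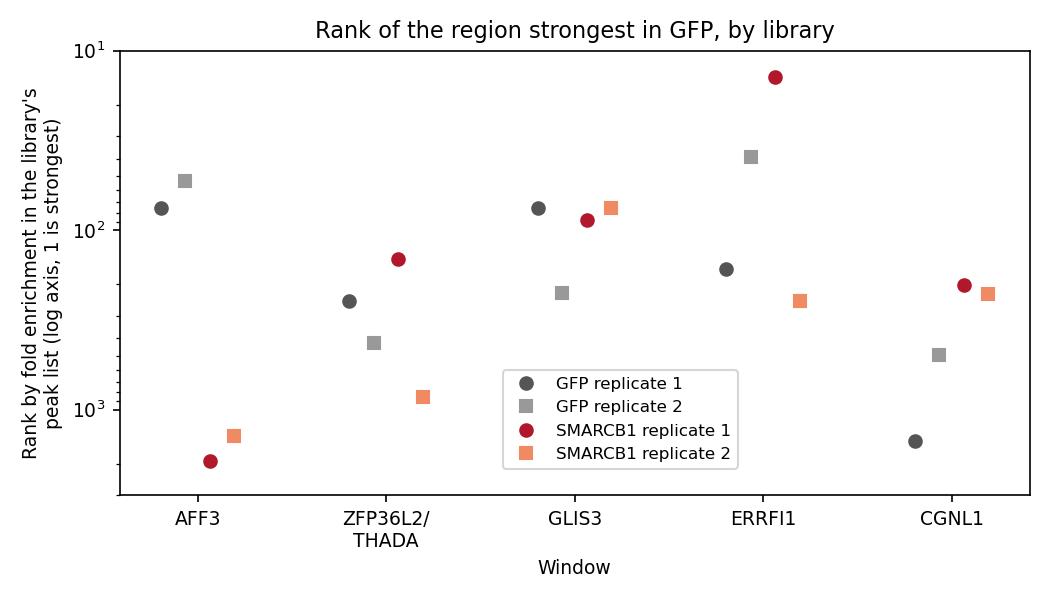
Rank by fold enrichment (y axis, log scale, with 1 at the top as the strongest peak) of the region strongest in GFP-induced cells in each window, 1 point per library. AFF3 has ranks of 75 and 53 with GFP and 1924 and 1407 with SMARCB1, and CGNL1 has 1498 and 497 with GFP and 201 and 226 with SMARCB1.

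Merged regions were counted as lost when both GFP libraries and neither SMARCB1 library had a peak in them, and as gained in the opposite case. The 5 windows held 890 regions, of which 47 were lost and 99 gained, or 5.28% and 11.1%. Over the genome 3.94% of regions were lost and 17.5% gained. The ZFP36L2 and THADA window had 30 of the 47 lost regions and 5 gained ones. AFF3 had 10 lost and 45 gained regions, GLIS3 1 and 28, ERRFI1 6 and 10, and CGNL1 0 and 11. In lists of equal length 73 of 709 regions were lost and 31 gained, or 10.3% and 4.37%. The genome shares were then 8.11% and 11.4%. The ZFP36L2 and THADA window then had 40 lost regions and 1 gained region of 192, or 20.8% and 0.521%. When 1 library stood for a group, fewer peaks were needed for a call, so higher counts follow in part from the definition. Lost regions numbered 130 without GFP replicate 1 and 125 without GFP replicate 2. Their shares were 16.01% and 15.49%, beside 9.29% and 14.22% over the genome. Gained regions numbered 195 without SMARCB1 replicate 1 and 230 without SMARCB1 replicate 2. Their shares were 25.69% and 28.97%, beside 38.99% and 46.73% over the genome.

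The regions present in 1 group alone were short compared with those all libraries shared. Such an order follows at least in part from the definition. A common region joins the overlapping peaks of all 4 libraries, and a wide region is more likely to touch a peak of each. The widths are therefore a description only. The median width of the 47 common regions of AFF3 was 2987 bp, against 512 bp for the lost and 572 bp for the gained ones. In the ZFP36L2 and THADA window 42 common regions had a median of 2475 bp and the 30 lost ones 610 bp, and the lost ones summed to 25.9 kb. The strongest gained region of any window was chr2:100662562-100663983 in the AFF3 window, 1422 bp long, with ranks of 26473 and 23500 in the SMARCB1 libraries and no GFP peak within 2613 bp. The strongest gained region of GLIS3, chr9:4246440-4247227, ranked 39314 and 48170, with the nearest GFP peak at 2516 bp. When peaks within 1 kb were joined first, 5 regions were lost and 14 gained in the 5 windows together. The shares were then 2.92% and 8.19%, beside 3.20% and 18.7% over the genome. The 11 gained regions of CGNL1 summed to 5.56 kb, against a difference in cover of 49.8 kb in that window.

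**Figure D4:**
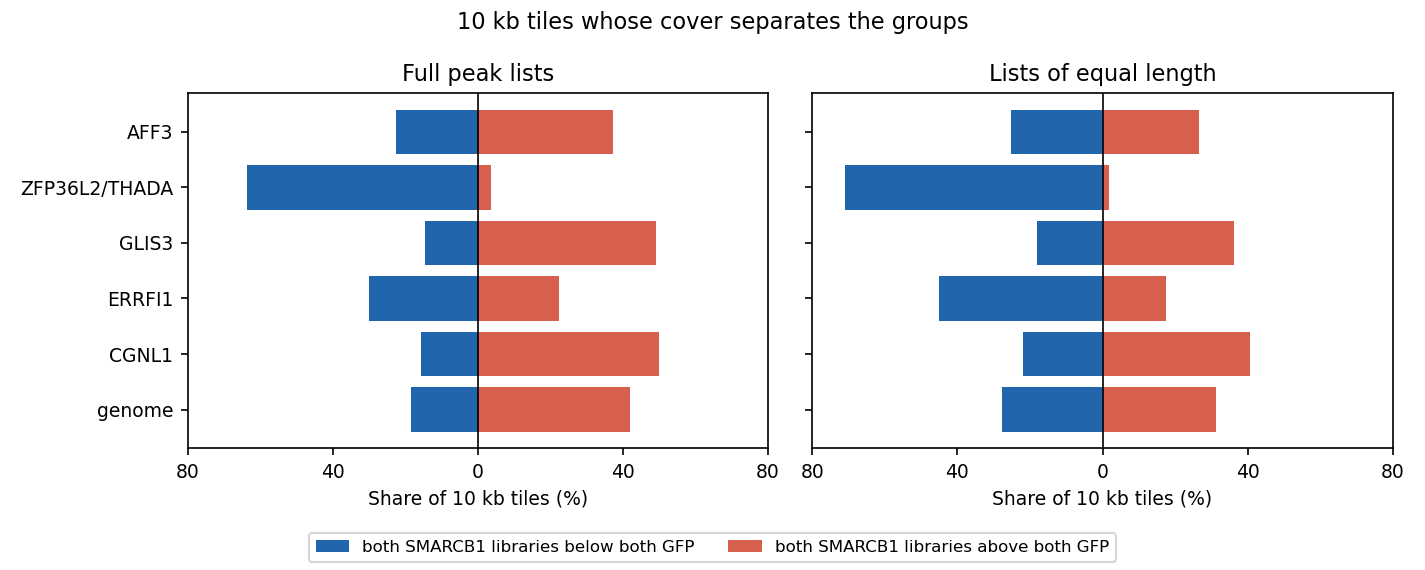
Share of 10 kb tiles (x axis, percent) in which both SMARCB1 libraries were below (blue, to the left) or above (red, to the right) both GFP libraries, for each window and for all genome tiles with a peak, in the full lists and in lists of equal length. The ZFP36L2 and THADA bar reaches 63.6% to the left in the full lists, against 18.5% for the genome. Window shares also count tiles without a peak in any library, and genome shares do not.

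Very wide peaks took less of most windows in SMARCB1-induced cells. Sequence in peaks wider than 10 kb summed to 360 and 429 kb over the 5 windows in the GFP libraries and to 302 and 139 kb in the SMARCB1 libraries. Genome-wide such peaks also made up 12.3% and 14.9% of the covered sequence with GFP and 7.59% and 5.06% with SMARCB1. In the ZFP36L2 and THADA window the sum was 51.4 and 70.3 kb with GFP and 11.8 and 0 kb with SMARCB1. In the AFF3 window it was 110 and 147 kb with GFP and 106 and 43.9 kb with SMARCB1, and in the GLIS3 window the means were 117 ± 3.795 kb and 93.6 ± 15.3 kb (SD, n = 2). For CGNL1 it was 39.3 and 43.6 kb with GFP and 36.1 and 12.3 kb with SMARCB1, so the added cover of that window was in narrower peaks. ERRFI1 had 39.4, 52.7, 44.1 and 0 kb, and the groups overlapped.

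The largest cluster of joined peaks depended on the joining distance, and for AFF3 it differed in the opposite direction to the cover of the window. With peaks at most 10 kb apart joined, the largest AFF3 cluster covered 276 and 272 kb with GFP and 189 and 178 kb with SMARCB1. Its rank by covered length was 2 in both GFP libraries and 16 and 15 in the SMARCB1 libraries, among clusters from lists of different length. The AFF3 difference was -90.7 kb at this distance, -20.5 kb at 5 kb and 31.6 kb at 20 kb. For ZFP36L2 and THADA the largest cluster covered 117 and 140.3 kb with GFP and 53.5 and 63.5 kb with SMARCB1, and it was lower with SMARCB1 at all 3 distances. For GLIS3 the values were 157, 166, 162 and 261 kb, and the groups overlapped. The mean difference of 49.8 kb for GLIS3 was 0.607 kb without SMARCB1 replicate 2 and 99.1 kb without SMARCB1 replicate 1. It was -2.31 kb at 5 kb of joining and -8.61 kb in lists of equal length. The clusters of ERRFI1 covered 162, 171, 190 and 174 kb, and their difference of 15.5 kb was between -12.2 and -1.16 kb under the other joining distances, in equal lists and with a -log10 q of at least 5. Those of CGNL1 covered 127, 134, 189 and 171 kb.

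The authors' deposited tables marked the longest stitched region of every window as a super-enhancer in all 4 libraries. Within the windows, 9 of 23 and 7 of 24 stitched regions carried the mark in the GFP tables and 8 of 19 and 11 of 22 in the SMARCB1 tables. Over all regions of the authors' deposited tables, 3.37% and 3.35% were marked with GFP and 5.55% and 5.02% with SMARCB1. At equal numbers of regions by deposited rank the counts were 9, 7, 7 and 8, and the difference of 1.5 marks became -0.5. By summed peak width, the longest region of ZFP36L2 and THADA ranked 7 and 10 in the GFP tables and 112 and 135 in the SMARCB1 tables, at 201 and 190.0 kb and at 83.4 and 63.6 kb. AFF3 ranked 1 and 1 with GFP and 1 and 2 with SMARCB1, and GLIS3 4 and 4 and then 2 and 1. ERRFI1 ranked 13, 13, 15 and 12, and CGNL1 27, 21, 13 and 11. The tables differed in length, between 19377 and 36063 regions, so these ranks are given side by side only.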

How the data were processed

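H3K27ac libraries of G401 cells were analysed from 4 peak lists and 4 tables of stitched regions. BWA 0.7.12-r1039, SAMtools and bedtools and the build hg19 are named in the submitters' processing notes. Peaks were called by the authors on each library separately with MACS2 and then filtered, per the file names. Neither the version and control of the caller nor the rule of the filter is given in the sources used here. Each peak carries a deposited fold enrichment, the authors' ratio of summit to background, and its deposited -log10 p and -log10 q are the authors' too. The deposited stitched-region tables give the authors' number of peaks, summed width, rank score and super-enhancer mark, from ROSE per the file headers. Of their signal columns 8 were not used, and 4 of these matched no sample.

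The members, windows and lists were chosen with earlier results of these data known, and no test was run. Covered length, 10 kb and 500 kb tiles, clusters of peaks at most 10 kb apart, and regions merged from 1 bp of overlap were computed per library. For every peak, the whole fragment number and background that return its fold and -log10 p within 0.001 were recovered, in 100% of peaks. Fragments of SMARCB1 replicate 1 had a scale of 0.855. The code was tested on simulated lists. Named regions were the strongest and the widest GFP region and the strongest lost and gained regions of each window, ordered by the lower fold of the libraries that had them. Sequencing depth was not given, so no counting interval was possible. Alternatives were lists of equal length, -log10 q of at least 5, the strongest 20000 peaks, windows widened by 100 kb, other joining distances and tile sizes, and each library left out. The 10 kb tiles, the peaks wider than 10 kb and leaving out libraries for clusters, tiles and marks were added after seeing the data. RefSeq gave gene names and promoters (GRCh38.p14). The tools were matplotlib 3.10.9, scipy 1.17.1, pandas 2.3.3 and numpy 2.4.6 under Python 3.11.15.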

Additional observations from a re-analysis of the deposited data

How the results depend on the processing

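The covered length of the ZFP36L2 and THADA window was lower with SMARCB1 and that of the CGNL1 window higher under every alternative run. With lists of equal length, the difference between SMARCB1 and GFP means was -61.6 kb over the 5 windows, -4.001 kb for AFF3, which reversed it, -108 kb for ZFP36L2 and THADA, 27.6 kb for GLIS3, -8.99 kb for ERRFI1 and 31.8 kb for CGNL1. With the strongest 20000 peaks it was -43.3 kb over all windows, -4.86 kb for AFF3, also reversed, 33.2 kb for GLIS3, -20.4 kb for ERRFI1 and 26.4 kb for CGNL1. With a -log10 q of at least 5 it was 7.96 kb over all windows, 10.99 kb for AFF3, 42.4 kb for GLIS3 and -4.17 kb for ERRFI1. Windows widened by 100 kb gave 13.2 kb for ERRFI1. Lost regions numbered 73 in lists of equal length, 17 among the strongest peaks and 5 after joining within 1 kb, and gained regions 31, 15 and 14, and 36 with the q filter.

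Among the largest clusters, AFF3 differed by -20.5 kb at 5 kb of joining, 31.6 kb at 20 kb (reversed), -140.5 kb in equal lists and -27.2 kb with the q filter. ZFP36L2 and THADA differed by -28.8 kb at 5 kb, -156 kb at 20 kb, where the cluster of GFP replicate 1 began outside the window and covered 353 kb against 214 kb in GFP replicate 2, and -21.5 kb with the q filter. GLIS3 differed by -2.31 kb at 5 kb, -8.61 kb in equal lists and -6.61 kb with the q filter. ERRFI1, 15.5 kb higher as reported, reversed in all 4, to -3.39, -1.16, -11.0 and -12.2 kb. CGNL1 differed by 78.7 kb at 5 kb and 31.7 kb in equal lists. Tiles of 500 kb lower with SMARCB1 made up 28.4% in equal lists. Super-enhancer marks differed by 1.5 per library, and by -0.5 at equal numbers of regions. The cause of these changes was not tested.

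With each library left out, the difference ranged from 7.27 to 121 kb over all windows, 21.3 to 48.8 kb for AFF3, -94.9 to -67.6 kb for ZFP36L2 and THADA, 44.6 to 73.9 kb for GLIS3, -4.62 to 6.93 kb for ERRFI1 and 40.9 to 58.6 kb for CGNL1. Lost regions ranged from 54 to 130 and gained ones from 130 to 230. Largest clusters ranged from -96.3 to -85.1 kb for AFF3, -81.9 to -58.4 kb for ZFP36L2 and THADA, 0.607 to 99.1 kb for GLIS3, 7.36 to 23.7 kb for ERRFI1 and 41.0 to 58.3 kb for CGNL1. Tiles lower with SMARCB1 ranged from 17.1% to 30.3%, the latter without SMARCB1 replicate 1, tiles higher from 56.9% to 74.1%, and the difference in marks from 0 to 3. With the replicate number as a block the mean difference over all windows was 64.0 kb, from 142 kb in pair 1 and -13.8 kb in pair 2. Nothing in the labels says that equal numbers mark a pair, and over 3626 tiles the replicate differences of the 2 groups had a Pearson correlation of 0.22 across tiles, which are not independent.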
